A study of Mus musculus with 3 samples.

Results

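The 29 genes described here are long noncoding RNA genes of the mouse, among them the host genes of small nucleolar RNAs (snoRNAs), measured by RNA sequencing in sorted dorsal root ganglion (DRG) cells. They were chosen by name, as every gene called Snhg with a number and 20 further listed symbols, out of the 41388 Ensembl genes in the deposited tables. Of the 29, 27 matched by current symbol and 2 by an older name in RefSeq (Oip5os1 as 1700020I14Rik and Snhg16 as 1810032O08Rik). Snhg1, Snhg7, Rmst and Sox2ot had no such name, and 4 unnamed features that cover at least 90% of the RefSeq span of these loci are given beside the 29 and are not counted among them. Snhg4, Snhg8, Snhg10 and Peg13 could not be matched to a single feature and are not analysed here.

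The cells came from C57BL/6 mouse embryos at 12.5 days post coitum that carried EGFP as a reporter of Ret, the receptor of GDNF family ligands. All 3 libraries share this reporter, which the sample labels write as Tg(Ret-EGFP)SJ/ and the series text as a heterozygous knock-in at Ret; the files do not settle which. Library D pooled 60 ganglia of 3 embryos, library B 340 ganglia of 17 embryos (10 male and 7 female) and library C 300 ganglia of 15 embryos, all from the lower thoracic to the first sacral level. The pools are 1 group with no second condition and no unsorted or EGFP-negative control, so levels are described, and library D, which has the fewest embryos, is set against B and C. Total counts were 20966139 in D, 18072199 in B and 11666241 in C. The p-values below measure only the spread between these pools, which may be technical in part.

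Long noncoding RNAs work as RNA. Malat1 and Neat1 stay in the nucleus, where Malat1 collects at nuclear speckles and Neat1 is the scaffold around which paraspeckles form. Snhg genes, Gas5 and Zfas1 are transcribed and spliced, and the snoRNAs that guide modification of ribosomal RNA are cut from their introns, while the spliced exons often carry the pyrimidine-rich start (the 5′ terminal oligopyrimidine tract) of ribosomal protein genes and are broken down by nonsense-mediated decay. Other members host microRNAs, lie beside developmental genes such as Sox2 or the Hox clusters, or take part in the control of the X chromosome.

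The transcription starts of a few members are shown because many snoRNA host genes of mammals begin with a pyrimidine run. Each line gives 20 bases before and 20 bases from the RefSeq start on (GRCm38.p6, transcribed strand), with the first match to CTTTC, or to CTTTT, or to CTCTC, or to CTCTT (no other motif was searched) in capitals. The lines are Gas5 at its second annotated start (chr1:161035146-161035185, plus strand), Snhg12 (chr4:132308658-132308697, plus strand), Snhg5 (chr9:88522878-88522917, minus strand), Oip5os1 (chr2:119594276-119594315, plus strand) and, with no match, Malat1 (chr19:5802653-5802692, minus strand).
Gas5: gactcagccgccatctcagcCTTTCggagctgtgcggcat
Snhg12: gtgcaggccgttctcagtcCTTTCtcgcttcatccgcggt
Snhg5: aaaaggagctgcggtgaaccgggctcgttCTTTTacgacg
Oip5os1: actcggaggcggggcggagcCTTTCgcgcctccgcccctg
Malat1: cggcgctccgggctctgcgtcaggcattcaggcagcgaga
In Gas5 and Oip5os1 the match begins on the start base itself, and in Snhg12 it begins 1 base before it. Such a word was found in 6 of the 13 snoRNA host members with a sequence (46.2%), in 3 of the 9 other members with one (33.3%) and in 20.8% of 27025 genes of the table. A gene was counted if any of its annotated starts had a match. The first annotated start of Gas5, not shown, had none. The search covered the transcribed strand only, and a match describes letters, not a working element.

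Most of the 29 genes were expressed in every pool, with mean levels that ran down to 0.0778 TPM (counts divided by gene length and scaled to the same sum in each library) from the 1153 TPM of Malat1. At a limit of 1 TPM in every library, 22 of the 29 were detected, whereas 28.7% of all genes in the tables were. Malat1, Gas5 and Snhg5 reached 100 TPM or more in all 3 libraries. Another 4 members (Neat1, Pantr1, Crnde and Mir9-3hg) reached 1 TPM in no library, and Snhg3, Dleu2 and Ftx did so in 1 or 2 libraries. The 29 genes together took 0.614%, 0.547% and 0.530% of all counts in D, B and C.

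**Figure D1:**
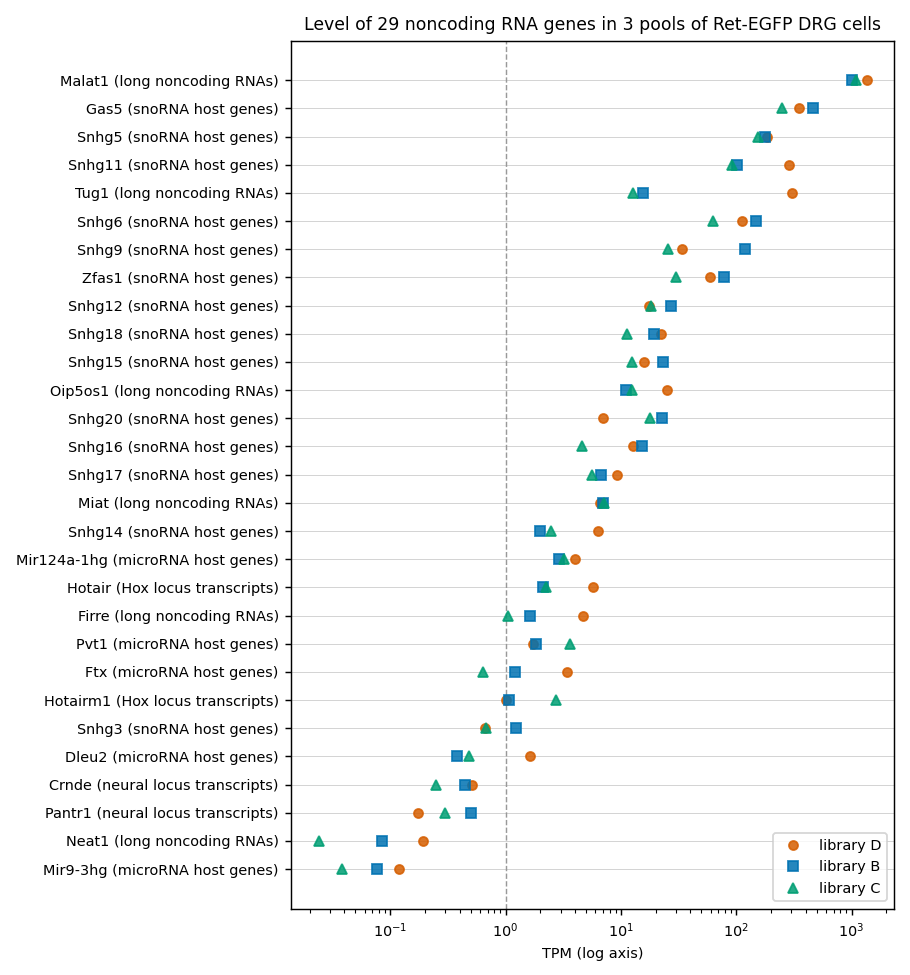
TPM of the 29 members in libraries D, B and C on a log axis, each row a gene with its class in brackets and the dashed line at 1 TPM. Malat1 stands at 1002 TPM or more in every library, Neat1 below 0.2 TPM, and Tug1 shows the widest gap, with 303 TPM in D against 15.4 and 12.8 TPM in B and C.

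The levels below are in TPM, which serves for comparing genes within a library. TPM does not serve well for comparing these libraries: the counts of D lie more on long genes, and the factor that turns the deposited RPKM into TPM was 2.72 in D, 2.00 in B and 1.95 in C. The median gene was therefore 0.71 higher in D on the log2 TPM scale, 0.27 higher by log2 CPM (counts scaled to the same library total) and 0.02 lower in the edgeR ratios, which use TMM scaling. Differences between libraries are therefore read from CPM and edgeR log2 ratios, and TPM values of the same gene in D, B and C carry this shift.

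Malat1 (ENSMUSG00000092341, chr19:5795690-5802672, minus strand) was the leading member. It had 1362 TPM in D, 1002 TPM in B and 1094 TPM in C, a mean of 1153 ± 187 (SD, n = 3), and ranked 66th, 152nd and 111th among all genes of those libraries. On the CPM scale the libraries were close, at 3497 in D, 3491 in B and 3926 in C. Malat1 alone made up 56.9%, 63.9% and 74.0% of the member counts in D, B and C.

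Neat1 (ENSMUSG00000092274, chr19:5824708-5845478, minus strand), the neighbour of Malat1, was barely counted in these libraries. Its exons span 20771 bases, yet they held 31 counts in D, 16 in B and 3 in C, which is 0.194, 0.0854 and 0.0241 TPM. The count in C lies at the floor of 3 counts, and the exact 95% Poisson limits of its level are 0.00497 and 0.0704 TPM, which cover counting error only. Within each library Malat1 stood above Neat1 by 7036-fold in D (exact 95% counting interval 4956 to 10356), 11730-fold in B (7222 to 20523) and 45414-fold in C (15539 to 220224). The mean log2 ratio was 13.92 ± 1.39 (SD, n = 3), higher in 3 of 3 libraries, and the exact two-sided sign-flip test gave p = 0.25, the smallest that 3 libraries allow.

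All 10 genes of paraspeckle proteins were detected beside the low Neat1. The 4 with the highest mean were Hnrnpk, with 604, 207 and 105 TPM in D, B and C, Nono with 347, 152 and 117 TPM, Sfpq with 80.7, 47.1 and 42.6 TPM, and Tardbp with 77.7, 29.2 and 16.7 TPM. These proteins bind RNA in many other settings than the paraspeckle. Their levels summed to 1278 TPM in D, 543 TPM in B and 408 TPM in C, or 2409, 1345 and 976 CPM.

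**Figure D2:**
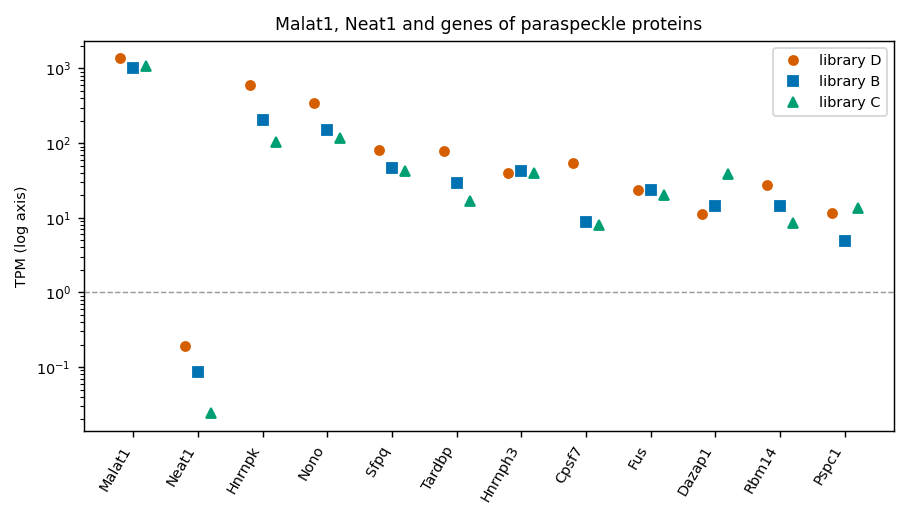
TPM of Malat1, Neat1 and the 10 genes of paraspeckle proteins in libraries D, B and C on a log axis, with a dashed line at 1 TPM. Neat1 lies under 0.2 TPM in each library, while every protein gene lies above the line and Hnrnpk reaches 604 TPM in D.

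Among the other long noncoding RNAs, Miat was the steadiest member on the TPM scale. Miat (ENSMUSG00000097767), first described at a locus linked to myocardial infarction and expressed in the developing nervous system, had 6.63 TPM in D, 7.00 TPM in B and 7.21 TPM in C. Its SD of log2(TPM + 0.1) over the libraries was 0.06, and 0.815% of the detected genes had a smaller one. On the edgeR scale, which places D lower than TPM does, its ratio in D was -0.80 ± 0.49 (approximate SE, adjusted p = 0.38). Oip5os1, a cytoplasmic RNA also known as Cyrano that is conserved in vertebrates, had 76.9 CPM in D, 45.5 CPM in B and 53.1 CPM in C, with a mean of 16.2 ± 7.82 TPM (SD, n = 3). Firre, an X-linked RNA that stays near its own locus in the nucleus, had 52, 21 and 9 counts in D, B and C, or 4.69, 1.62 and 1.04 TPM.

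Tug1 (ENSMUSG00000056579, chr11:3639785-3649042, minus strand), first described as an RNA raised by taurine in the developing retina, differed most between the pools. It had 16169 counts in D against 962 in B and 529 in C, which is 771 CPM in D against 53.2 and 45.3 CPM in B and C. B and C lay close together and D stood apart from both. The SD of its log2 TPM, 2.56, was larger than that of 99.8% of detected genes. The edgeR log2 ratio of D over B and C was 3.73 ± 0.40 (approximate SE), with an unadjusted p of 6.68e-05 and an adjusted p of 0.17, so the quasi-likelihood test did not call it. DESeq2 called it with an adjusted p of 5.49e-07. Tug1 ranked 4th by p among the 15727 genes tested, and 58 genes had a larger ratio. Between B and C alone the log2 ratio of B over C was 0.19.

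The snoRNA host genes were the largest class, with 14 members, 13 of them detected. Gas5 (ENSMUSG00000053332, chr1:161034422-161038539, plus strand), named for its rise in growth-arrested cells, had 10077 counts in D, 15798 in B and 5597 in C, and a mean of 354 ± 109 TPM (SD, n = 3). Its deposited length of 3760 bases takes in intron sequence of retained isoforms: with the median transcript length of 629 bases in GENCODE M21 its mean level came to 955 ± 318 TPM. The mean of 18 of the 29 members moved by over 1.5 times with that choice of length, among them Malat1 at 5944 TPM, Snhg11 at 440 TPM and Miat at 39.5 TPM. For Malat1 the median of 606 bases is a small part of its deposited 6983 bases, which form 1 block. The 5944 TPM is therefore not read as its level. Snhg5 had 184, 179 and 153 TPM in D, B and C, and 4.32% of detected genes had a smaller spread of log2 TPM. That scale carries the shift of D. Snhg5 had 117, 154 and 136 CPM in D, B and C, and its edgeR log2 ratio in D was -0.55. Snhg11, a host gene known for expression in neurons, had 894 CPM in D, 434 CPM in B and 401 CPM in C.

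Snhg6 had 47.6 CPM in D, 84.7 CPM in B and 37.1 CPM in C, and Zfas1, which lies beside Znfx1, had 64.1, 114 and 45.4 CPM. Both were highest in B. Snhg12 had 10.5, 22.1 and 15.3 CPM in D, B and C, Snhg15 had 7.92, 15.7 and 8.74 CPM, and Snhg18 had 12.1, 14.3 and 8.57 CPM. Snhg16 had 13.1, 20.97 and 6.60 CPM and Snhg17, whose values hardly differed, had 24.0, 23.6 and 20.6 CPM. Snhg9, the shortest member with a length of 183 bases, had 48 counts in D, 197 in B and 28 in C, or 2.29, 10.9 and 2.40 CPM. The feature at the Snhg1 locus had 61.9, 81.2 and 74.8 CPM, and that at the Snhg7 locus 11.0, 17.8 and 15.3 CPM. Gas5 stood above the Snhg1 feature by a log2 TPM ratio of 2.67 ± 0.38 (SD, n = 3, exact two-sided sign-flip p = 0.25), higher in 3 of 3 libraries.

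On the CPM scale, 3 of the 14 hosts were highest in D, 11 in B and 0 in C; by TPM the split was 5, 9 and 0. The hosts other than Snhg11, a sum formed after their values were seen, added up to 846 CPM in D, 1386 CPM in B and 814 CPM in C. With Snhg11 the sums were 1740, 1819 and 1215 CPM.

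**Figure D3:**
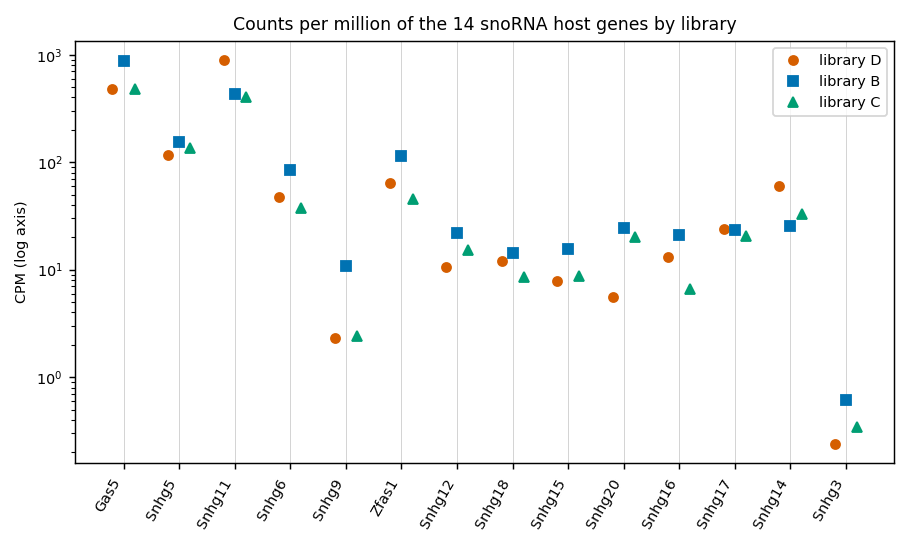
CPM of the 14 snoRNA host genes in libraries D, B and C on a log axis, ordered by mean TPM. B is highest for 11 genes and D for Snhg11, Snhg14 and Snhg17, and Snhg3 lies under 1 CPM in each library.

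Features of the snoRNAs themselves held few counts. The tables list 241 snoRNA genes inside the 14 members that hold any, 208 of them in Snhg14, the long transcript of the imprinted Prader-Willi and Angelman region, and these features held 88 counts over all libraries together. Of all 1525 snoRNA genes, 1268 had 0 counts in every library. In Gas5 the 9 such genes share bases with its exons and held 0 counts, and reads there cannot be assigned to 1 gene. These counts therefore do not give the level of the snoRNAs. Snhg14 itself, which spans many repeated snoRNA units and runs antisense to Ube3a, had 60.6 CPM in D, 25.7 CPM in B and 32.7 CPM in C. Its deposited exon length is 25799 bases, and its mean level was 3.62 ± 2.41 TPM (SD, n = 3), or 52.3 ± 28.5 TPM with the median transcript length of 770 bases.

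The partners of the snoRNAs were all present. The 10 snoRNP protein genes were detected in every library, led by Nop10 with 573, 961 and 520 TPM in D, B and C, Nhp2 with 416, 592 and 490 TPM, Nop56 with 223, 202 and 175 TPM, and Nolc1 with 128, 75.6 and 49.1 TPM. These TPM values carry the shift of D. The edgeR log2 ratio in D was -1.06 for Nop10, -1.08 for Nhp2, -0.46 for Nop56 and 0.35 for Nolc1. All 22 protein-coding snoRNA host genes were detected, among them Rpl4 with 2901, 2963 and 2633 TPM in D, B and C. Rps3 had 949, 1285 and 783 TPM and the elongation factor gene Eef2 1395, 683 and 299 TPM; ribosomal protein genes share reads with near-identical copies, so their counts are uncertain. Of 10 nonsense-mediated decay factors, 9 were detected, with Upf3a at 17.6, 11.6 and 73.9 TPM, Upf3b at 21.2, 28.0 and 16.4 TPM, and the helicase gene Upf1 at 15.9, 12.0 and 6.65 TPM in D, B and C.

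Exons that lie in other genes limit what these counts can be assigned to. The kit does not mark strand, and 23 of the 29 members share exon bases with another gene of the table. Snhg3 shares 86.3% of its 986 bases with Rcc1, Gm17300 and Snora73a, and its 5, 11 and 4 counts in D, B and C stand beside 726, 844 and 402 counts of Rcc1, the chromatin-bound exchange factor of Ran. Hotairm1 shares 43.1% of its length, Snhg16 26.0%, Snhg12 20.5%, Zfas1 18.5% and Gas5 17.8%, in Gas5 with 9 small RNA genes. Snhg11 shares 1.56% and Oip5os1, Snhg18 and Firre share 0%.

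MicroRNA hosts carry short RNAs that repress messages through a seed at bases 2 to 8. The mature forms, from RefSeq (GRCm38.p6), are shown for the loci in Dleu2 (miR-15a and miR-16), Mir9-3hg (miR-9) and Ftx (miR-374b), with the seed in capitals; the libraries measured the host transcripts, not these RNAs.
mmu-miR-15a-5p: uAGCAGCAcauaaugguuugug
mmu-miR-16-5p: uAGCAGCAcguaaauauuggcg
mmu-miR-9-5p: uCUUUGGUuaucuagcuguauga
mmu-miR-374b-5p: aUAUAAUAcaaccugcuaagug
The pair in Dleu2 share a seed and the other 2 differ from it and from each other. The 7 microRNA genes inside members held 1 count in all.

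The host of miR-124, the microRNA that is raised as neurons form, was detected and that of miR-9 at the Mir9-3 locus was not. Mir124a-1hg had 148 counts in D, 125 in B and 93 in C, or 4.00, 2.89 and 3.23 TPM, against 4, 3 and 1 counts of Mir9-3hg, or 0.119, 0.0762 and 0.0382 TPM. The ratio was 33.6-fold in D (exact 95% counting interval 12.9 to 125), 37.9-fold in B (12.7 to 186) and 84.5-fold in C (14.8 to 3373). The mean log2 ratio was 5.57 ± 0.72 (SD, n = 3; exact sign-flip p = 0.25), higher in 3 of 3 libraries. The other loci of these microRNAs lie in genes outside the 29: Mir124-2hg had 15.3, 8.35 and 12.8 TPM in D, B and C, C130071C03Rik at Mir9-2 had 5.80, 1.88 and 0.589 TPM and Gm3764 at Mir9-1 had 0, 1 and 0 counts.

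Dleu2, which lies beside Trim13, had 78, 21 and 18 counts in D, B and C and passed 1 TPM in D alone. Ftx, an activator of Xist that lies upstream of it on the X chromosome, had 200 counts in D, 82 in B and 29 in C. Xist, the RNA that coats the inactive X, had 11 counts in D against 441 in B and 485 in C, although D is labelled as male and female like the others. Pvt1, the neighbour of Myc, had 4.44, 6.47 and 13.0 CPM in D, B and C, and Myc had 1516, 1556 and 312 counts. The edgeR log2 ratio in D was -1.38 for Pvt1 and 0.13 for Myc, and that in C was 1.39 and -1.42.

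Of 10 genes known as targets or partners of miR-124 and miR-9, 9 were detected. Ptbp2, the splicing regulator of young neurons, had 5788 counts in D against 1272 and 731 in B and C, with an edgeR log2 ratio of 1.81 in D, and Actl6b, the neuronal subunit of the BAF remodelling complex, had 791 counts in D against 2139 and 1224 in B and C, with a ratio of -1.80. Actl6a, its progenitor counterpart, had 187, 101 and 93.9 TPM, and the transcription factor gene Onecut2 54.8, 41.0 and 35.4 TPM. These TPM values carry the shift of D, and the edgeR log2 ratio in D was 0.24 for Actl6a and -0.18 for Onecut2. In edgeR none of the 9 passed in D, and 5 had an unadjusted p under 0.05, 4 of them higher in D and 1 lower, where 19.4% of all genes had such a p. Their median log2 ratio was 1.33 against -0.02 for all genes. Of the 9, 6 had a positive ratio in D and 3 a negative one. The ratio was 1.83 for Sox9, 1.67 for Rest, 1.63 for Ptbp1, 1.33 for Ctdsp1 and -1.13 for Onecut1.

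Transcripts of neural and Hox loci were low. The feature at the Sox2ot locus, which overlaps Sox2, had 191 counts in D, 55 in B and 20 in C, or 2.87, 0.706 and 0.386 TPM, and Sox2 had 42.2 TPM in D, 10.8 TPM in B and 10.3 TPM in C. The Rmst feature, a transcript known from the developing midbrain, had 14, 8 and 6 counts. Pantr1 had 6, 20 and 8 counts beside its neighbour Pou3f3 with 9, 7 and 0 counts, and Crnde 8, 8 and 3 counts beside Irx3 with 0, 0 and 3 and Irx5 with 2, 1 and 0. Both pairs lie near the floor of 3 counts. Miat stood above the Rmst feature by a log2 TPM ratio of 5.46 ± 0.61 (SD, n = 3; exact sign-flip p = 0.25), higher in 3 of 3 libraries.

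Hotair, transcribed between Hoxc11 and Hoxc12, had 88 counts in D, 38 in B and 27 in C, or 5.69, 2.10 and 2.24 TPM, and was detected in each library. Hoxc11 had 3.79, 2.63 and 2.72 TPM in D, B and C, and Hoxc12 had 7, 2 and 5 counts. Hotairm1, a transcript of the Hoxa cluster, had 8, 10 and 17 counts in D, B and C, beside its neighbour Hoxa2 with 38, 23 and 41.

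Further coding neighbours gave the following levels in D, B and C. Slc3a2, beside Snhg1, had 77.5, 78.1 and 136 TPM, Trim13 81.9, 71.0 and 80.0 TPM and Kcnrg 15, 1 and 1 counts. Nedd1, beside Rmst, had 49.5, 11.4 and 7.93 TPM, and Znfx1 2.28, 1.29 and 1.34 TPM. The genes around Peg13 were Trappc9 with 25.1, 6.99 and 5.24 TPM, Ago2 with 17.0, 5.44 and 6.13 TPM and Kcnk9 with 1, 5 and 4 counts. Of the 13 neighbours tested in edgeR, 8 had a positive log2 ratio in D and 5 a negative one, where 49.5% and 50.5% of all genes did. Their median was 0.13 against -0.02 for all genes. The ratio was 1.66 for Nedd1, 1.34 for Trappc9, 1.30 for Sox2 and -1.18 for Slc3a2.

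Noncoding RNA genes outside the 29 set these levels in context. Of 19 such genes in the table, 9 were detected. Gm26917 had 43.0, 107 and 249 TPM in D, B and C, the small nuclear RNA gene Rn7sk 11.8, 147 and 149 TPM, the imprinted H19 134, 54.4 and 39.4 TPM and Epb41l4aos 48.0, 86.4 and 72.5 TPM. In edgeR 13 were tested, 9 lower in D and 4 higher, where 50.5% and 49.5% of all genes were. Their median log2 ratio was -1.25 against -0.02 for all genes. Xist had a ratio of -6.20, Rn7sk -4.35 and Gm26917 -2.77, while Mir17hg had 1.58 and H19 0.82. Meg3, an imprinted RNA of the Dlk1 domain, had 0.366, 0.742 and 1.14 TPM. Its mean log2 TPM ratio to Malat1 was -10.72 ± 1.02 (SD, n = 3; exact sign-flip p = 0.25), lower in 3 of 3 libraries.

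Setting library D against B and C, edgeR called 0 of the 27 members tested and 0% of all 15727 genes tested at an adjusted p of 0.05; Crnde and Mir9-3hg were too low to be tested. At an unadjusted p under 0.05 there were 2 members, where 19.4% of all genes had such a p: Tug1 was higher in D, as were 11.2% of all genes, and Snhg20 lower, as were 8.22%. DESeq2 called the same pair out of 21 members with an adjusted p, and 5.89% of all genes. With 1 residual degree of freedom, the fit takes the spread of D to equal that between B and C. Members higher in D numbered 9 and members lower 18, where 49.5% and 50.5% of all genes were, and the median log2 ratio of the members was -0.33 against -0.02 for all genes. By the TPM ratio 18 members were higher in D, and 9 members changed sign.

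Snhg20 had 116 counts in D against 446 in B and 233 in C, or 5.53 CPM in D against 24.7 and 19.97 CPM in B and C. D lay below both. Its edgeR log2 ratio was -2.25 ± 0.56 (approximate SE, unadjusted p = 0.0066, adjusted p = 0.19), and the adjusted p in DESeq2 was 0.027. The next members by p were Snhg11 with a log2 ratio of 0.86 ± 0.36 (edgeR adjusted p = 0.27), Pvt1 with -1.38 ± 0.71 (0.32), Snhg12 with -1.07 ± 0.55 (0.32) and Ftx with 1.20 ± 0.64 (0.33). For the Sox2ot feature the ratio was 1.69 ± 0.65 (edgeR adjusted p = 0.24).

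Most snoRNA hosts had a negative edgeR ratio in D, with no test of the class as such. Of the 14 hosts, 2 had a positive log2 ratio and 12 a negative one, with a median of -0.57; without library B 8 of the 14 were lower in D than in C, with a median of -0.15. Of the 13 other members tested 7 were positive and 6 negative, with a median of 0.40. None of these passed the adjusted threshold in edgeR. The direction of the hosts depended on scaling: 12 of 14 were lower in D by edgeR, 9 by the CPM ratio, 5 by the TPM ratio, 9 with the trend in length removed and 12 with that in length and GC removed. Of the 22 protein-coding snoRNA host genes, 19 were lower in D, with a median log2 ratio of -0.50, and of the 10 snoRNP protein genes 6 were, with a median of -0.56.

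**Figure D4:**
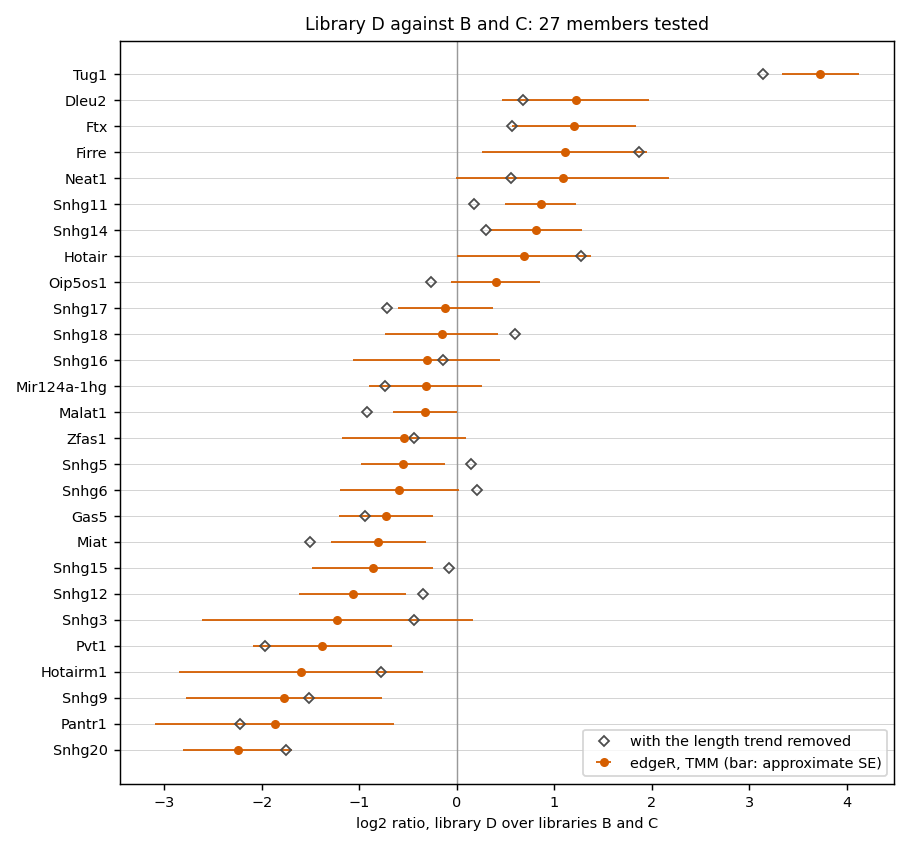
Log2 ratio of library D over libraries B and C for the 27 members tested, filled points from edgeR with their approximate standard error and open points with the trend in gene length removed. Tug1 stands at 3.73 and Snhg20 at -2.25, and Snhg11 moves to 0.18 when the length trend is removed.

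Ratios of D ran with gene length. Over the 15727 genes Spearman's rho between the log2 ratio of D and gene length was 0.40, and over the 27 members it was 0.49; both are descriptions across genes that share the libraries. With the trend in length removed, the median of the members was -0.27 against -0.07 for all genes, Tug1 had a log2 ratio of 3.14 (edgeR adjusted p = 0.058) and Snhg20 one of -1.75 (edgeR adjusted p = 0.25). Snhg11, with a length of 8521 bases, then had a ratio of 0.18.

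**Figure D5:**
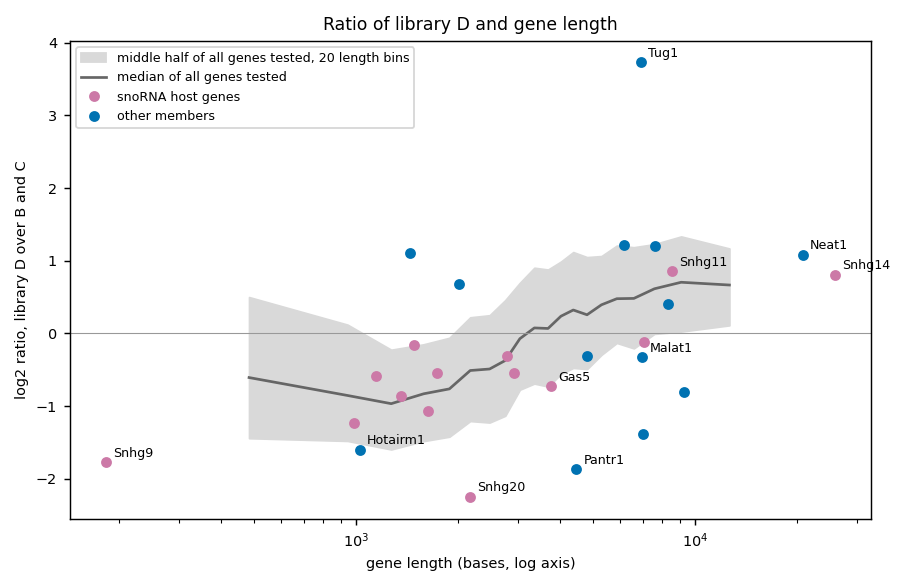
Log2 ratio of library D over B and C from edgeR against gene length on a log axis, for the 27 members tested, with the median and the middle 50% of all 15727 genes in 20 bins of length. Many snoRNA host genes are short and lie where the median of all genes is below 0, while Tug1 at 3.73 lies far above the band.

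Set against D and C, library B had 12 of 14 snoRNA hosts with a positive edgeR log2 ratio and 2 with a negative one, where 40.5% and 59.5% of all genes had these signs. The median of the hosts was 0.95 against -0.18 for all genes. In edgeR 0 members and 0% of all genes passed, and 2 members had an unadjusted p under 0.05, Snhg9 with a log2 ratio of 2.29 ± 1.15 and Tug1 with -2.74 ± 1.33 (approximate SE), where 1.11% of all genes had one; DESeq2 called 0 members and 0.00425% of all genes. Set against D and B, library C had 3 hosts with a positive and 11 with a negative ratio (45.4% and 54.6% of all genes), and a median of -0.34 against -0.11 for all genes; without library B, 6 of the 14 were lower in C than in D. In that fit edgeR called 0 members and 0.782% of all genes, DESeq2 0 members and 1.37%, and Tug1 was the 1 member with an unadjusted p under 0.05 (-2.93 ± 1.13), where 6.91% of all genes had one. The 3 fits share their libraries and are not independent.

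A coding host gene next to a member did pass in C. Rps2, the neighbour of Snhg9, had 4985 counts in C against 449 in D and 606 in B, with an edgeR log2 ratio of C over D and B of 4.09 ± 0.94 (approximate SE, adjusted p = 0.0059). Snhg9 did not share this pattern, with 2.40 CPM in C against 2.29 CPM in D and 10.9 CPM in B. Ribosomal protein genes share reads with near-identical copies, so the counts of Rps2 are uncertain. Library C also differed in 5 features of ribosomal repeats, which held 4.89% of its counts against 0.744% in D and 0.761% in B. Whether this bears on Rps2 was not tested.

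Cell type markers stood at unlike levels in the pools beside these results. Of the sensory neuron markers 7 of 7 passed 1 TPM in every pool, and they summed to 13904 CPM in D, 29059 CPM in B and 21362 CPM in C; 1 had a positive edgeR ratio in D and 6 a negative one, with a median of -0.60. All 7 markers of glia and Schwann precursors were detected and summed to 5114, 2654 and 1502 CPM. Of these, 5 were positive and 2 negative in D, with a median of 1.30. The sum in D was largely Ednrb, whose counts were 66535, 13667 and 6139 (D, B, C). It is therefore not read as the level of the whole list. The 2 negative ratios were -0.51 for Fabp7 and -0.15 for Sox10. Erythroid markers (3 of 4 detected) summed to 99.2, 932 and 471 CPM and sympathetic markers (4 of 4) to 71.6, 317 and 235 CPM, all 4 of each list negative in D. Mesenchyme markers (2 of 4) summed to 243, 79.3 and 61.5 CPM, nearly all of it Col1a2; 2 were positive and 2 negative in D, with a median of -0.38. None of 5 spinal cord markers was detected, with Olig2 and Lbx1 at 0 counts in every library. The part of these differences in the values of Tug1, the snoRNA hosts and the other members was not tested, and in such pools fewer cells of a type and less RNA per cell cannot be told apart.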

How the data were processed

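RNA sequencing of 3 pooled libraries was used, 1 deposited table per library. Per the labels' protocols, a SMARTer low-input kit, which keeps no strand information, made the cDNA from 10 ng of RNA. The authors deposited raw counts, CPM and RPKM per Ensembl gene. The deposited CPM equals count over the table's total and the deposited RPKM equals CPM per kilobase of gene length. Subread, featureCounts 1.4.5 and GRCm38.p2 are named, with no role, per the submitters' processing notes; the strand setting is not given in the sources used here.

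Symbols came from the tables given with the files (40254 of 41388 identifiers) and members also from RefSeq synonyms; sequences are from RefSeq, GRCm38.p6. The members, lists and tests were chosen with earlier results of these data known. Genes named were the 15 members with the highest mean TPM, those with the smallest p or largest spread, the neural members, and of each list the 4 highest and any called; results for some genes this rule names are left out of the text. TPM was computed from count and length, and detection meant 1 TPM in every library. EdgeR 4.0.16 (R 4.3.3, TMM, filterByExpr, quasi-likelihood test, Benjamini-Hochberg threshold 0.05) set each library against the other 2; approximate standard errors are the log2 ratio over the root of F. The code was run on simulated counts with known large changes, less spread than these libraries and no length trend. That run does not show how the fits perform on these pools. Alternatives were DESeq2 1.42.0, its size factors, no filter, a length or length and GC trend (mgcv 1.9.3), other detection limits, pseudocounts of 0.1 and 1 TPM, CPM, each library left out and, added after seeing the data, median transcript lengths, counts of hosts by direction, position-matched genes and TPM ratios. A count of 0 allows up to 3 counts, 0.143, 0.166 and 0.257 CPM in D, B and C; intervals cover counting error only, since amplified reads with no molecular identifiers do not each stand for a molecule. Feature coordinates are those of the files (GRCm38).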

Additional observations from a re-analysis of the deposited data

How the results depend on the processing

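Detection of 22 members became 24 at a limit of 0.5 TPM, 15 at 5 TPM, 22 with CPM, 21 with the median transcript length and 22 to 23 with a library left out. The median member level of 7.22 TPM became 11.7 in CPM, 1.43 TPM over the members that share no exon bases and 17.1 TPM with the median transcript length. The count of members called in D, 0 in edgeR, became 1 (Tug1) with the size factors of DESeq2, 2 (Tug1 and Snhg20) with no filter and 2 with DESeq2; in B and C it was 0 under every alternative run. The mean log2 ratio of Malat1 to Neat1 was 12.35 and that of Meg3 to Malat1 -9.35 in CPM. Some D ratios changed sign, none of them called: with the length trend removed Snhg5 had 0.14, Snhg6 0.21, Snhg18 0.60 and Oip5os1 -0.27; with length and GC removed Snhg18 had 0.27, Oip5os1 -0.35 and Snhg14 -0.17; and by the TPM ratio Malat1 had 0.38, Gas5 0.032, Snhg5 0.15, Snhg6 0.22, Zfas1 0.30, Snhg18 0.59, Snhg16 0.60, Snhg17 0.58 and Mir124a-1hg 0.38. With a library left out, the D ratio ranged between -1.05 and 0.093 for Snhg6, -1.05 and 0.23 for Zfas1, -0.46 and 0.23 for Snhg18 and -0.90 and 0.72 for Snhg16, each positive without B; the B ratio of Tug1 between -3.64 and 0.19; and the C ratio between -0.82 and 0.26 for Gas5 and -2.12 and 0.34 for Snhg9. The D ratio of Snhg9, -1.77, was -0.34 without B. Hosts lower in D, 12 by edgeR, were 5 by the TPM ratio and 8 to 12 with a library left out; hosts higher in B, 12, were 12 to 13; and hosts lower in C, 11, were 6 to 13. The TPM ratio raises the median gene in D; for the other changes the cause was not tested. Tug1 had a D ratio between 2.95 and 4.42 under every alternative; without D, its ratio of B over C was 0.19. No paired analysis was possible because the libraries form 1 group. Counts of 10 or fewer limit Neat1, Mir9-3hg, Crnde, Snhg3, Hotairm1, Pantr1, Firre and the Rmst feature in some libraries, and 3 libraries limit every test.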
